A study of Mus musculus with 31 samples.

Results

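The 5 genes described here are Wap, Expi, Wfdc12, Wfdc2 and Slpi, taken by symbol as members of the whey acidic protein (WAP) domain family from the 22609 genes in each table, and all 5 members were found in both tables. RNA was measured in mouse mammary tissue, taken without lymph nodes, from mice that differ in how many functional alleles they carry of Stat5a and Stat5b, the neighbouring genes for the transcription factors that prolactin activates in mammary epithelium. In Null mice both genes were floxed (Stat5ab fl/fl) and removed by MMTV-Cre, a transgene that acts in mammary epithelium. Their stroma was thus meant to keep Stat5, but whether removal was complete, or confined to epithelium, was not tested. B mice carried 1 Stat5b allele (Stat5abnull/Stat5a-) and A mice 1 Stat5a allele (Stat5abnull/Stat5b-). BB mice were Stat5a-/- and kept 2 Stat5b alleles, and AB mice (Stat5ab+/null) kept 1 allele of each gene. In these 4 genotypes the alleles were lost in the whole animal. AABB mice were wild type, with 4 alleles, although the design text also places Stat5ab fl/fl mice under AABB. All groups shared the mixed 129SV::FVB/N::C57BL/6 background, and ages were not given. Tissue came from day 6 of pregnancy (18 samples listed, 3 per genotype) and from parturition, within 12 hours of delivery (13 samples listed, of which B has 3 and the other 5 genotypes 2 each). The protocol speaks of 2 mice per genotype, and the labels do not say whether A and B samples with the same number share an animal.

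The WAP domain is a short cysteine-rich fold held together by disulfide bonds, and most proteins that carry it are small and secreted. Several of them, such as Slpi, block serine proteases at mucosal surfaces. Wap gave the family its name: it is a main whey protein of mouse milk, made by alveolar cells under prolactin and glucocorticoid and widely used as a readout of Stat5 activity. Expi, also called Wdnm1 and Wfdc18, encodes a small secreted protein of the same fold that is abundant in the pregnant and lactating mouse gland. Wfdc12 is a secreted antibacterial protein of this family in mice, and Wfdc2, known in humans as HE4, is secreted by many lining epithelia.

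The 5 promoters matched entries of the RefSeq table for build GRCm38.p6, Expi under its current symbol Wfdc18, and each window holds 250 bases before and 50 bases from the transcription start. Those of 3 genes are shown because their genes moved in the different ways described below: Wap and Expi were higher in AABB at parturition, and Wfdc2 was higher in Null. Wap lies on the minus strand at chr11:6638600-6638899, Expi on the plus strand at chr11:83708754-83709053 and Wfdc2 on the plus strand at chr2:164562465-164562764. Capitals mark TTTAAA in Wap, TATAAA in Expi and GGGCGG, read on the other strand as CCGCCC, in Wfdc2.
Wap: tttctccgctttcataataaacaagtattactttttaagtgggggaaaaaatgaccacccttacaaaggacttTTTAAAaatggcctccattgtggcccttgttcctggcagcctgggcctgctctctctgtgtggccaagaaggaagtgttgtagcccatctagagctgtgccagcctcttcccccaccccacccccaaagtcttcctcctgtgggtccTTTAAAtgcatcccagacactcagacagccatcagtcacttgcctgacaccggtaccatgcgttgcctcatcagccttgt
Expi: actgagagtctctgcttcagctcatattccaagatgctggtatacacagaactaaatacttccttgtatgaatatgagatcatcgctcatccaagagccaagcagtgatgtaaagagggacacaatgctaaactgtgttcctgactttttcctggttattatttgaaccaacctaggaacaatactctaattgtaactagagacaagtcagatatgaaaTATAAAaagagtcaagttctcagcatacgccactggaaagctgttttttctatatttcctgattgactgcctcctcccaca
Wfdc2: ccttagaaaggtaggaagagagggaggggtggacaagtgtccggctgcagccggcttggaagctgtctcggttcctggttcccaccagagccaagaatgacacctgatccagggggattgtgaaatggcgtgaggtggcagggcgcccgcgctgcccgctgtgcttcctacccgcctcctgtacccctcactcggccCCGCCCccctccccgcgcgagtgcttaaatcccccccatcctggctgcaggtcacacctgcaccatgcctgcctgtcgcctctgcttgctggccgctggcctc

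The Wap window held TTTAAA at positions -177 and -30 from the start, the Expi window TATAAA at position -31, and the Wfdc2 window GGGCGG at position -53. None of these 3 motifs was found in the windows of Wfdc12 or Slpi. Searched on both strands, TATAAA stood in 13.6% of all 32851 promoter windows, TTTAAA in 13.2% and GGGCGG in 35.7%, and these 3 motifs were chosen after the sequences were read. GC content was 39.0% for Expi, 50.3% for Wap and 65.3% for Wfdc2. Wfdc2 has 2 windows, of which only the first was searched as a member window. The letters TTCNNNGAA, the form of a STAT5 binding site, were in 0 of the 5 member windows and in 8.3% of all windows. They were also in 4 of 10 other milk protein genes, with the match at position -93 in the promoter of Csn2 (beta-casein). These are matches of letters in a short window only.

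The deposited values are FPKM, read fragments corrected for transcript length and library size, so levels of different genes can be compared within a column. Each genotype has a single column at each stage, in which the authors averaged its samples. No SD, replicate check or p-value can therefore stand beside any value below. Read depth is unknown. Columns were scaled within a stage so that most genes stay level, and a gene was called when scaled FPKM + 1 differed at least 2-fold, that is by 1 on the log2 scale. The tables of the 2 stages were normalised separately, so levels set across stages are approximate. After a filter of at least 1 FPKM in 2 of 6 columns, 13367 genes were compared at day 6 and 13061 at parturition, with all 5 members in both. The median log2 ratio of all compared genes lay at 0.10 for Null, 0.11 for B and 0.10 for A against AABB at parturition, and at 0.00, 0.04 and 0.03 for them at day 6.

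The targeted genes check the labels in part. Stat5a had 13.6 scaled FPKM in Null, 12.5 in B, 15.9 in A, 3.67 in BB, 13.4 in AB and 33.6 in AABB at day 6, and 6.96, 8.60, 16.5, 4.30, 22.9 and 70.8 in the same order at parturition. Stat5b had 9.04 in Null, 12.3 in B, 10.6 in A, 14.9 in BB, 11.7 in AB and 16.7 in AABB at day 6, and 7.65, 12.6, 10.3, 12.6, 11.2 and 25.4 at parturition. AABB was highest for both genes, but the column labelled B held Stat5a RNA and the column labelled A held Stat5b RNA, so B and A below mean the columns labelled so. Whether that RNA came from the disrupted alleles was not tested. Skeletal muscle markers summed to 4733 scaled FPKM in AB at day 6, against 20.8 to 328.5 in the other 5 columns, and at parturition to 2468 in Null, 1516 in B and 1533 in A, against 2.83 in BB, 6.35 in AB and 152 in AABB. Markers of B and plasma cells summed to 211 in B and 148 in A at day 6, against 6.12 to 26.9 in the other 4 columns, although the tissue is described as free of lymph nodes, and to 3.16 to 22.5 at parturition. The B-cell receptor gene Cd79a had 61.0 scaled FPKM in B and 53.5 in A at day 6, against 1.102 in AABB. Exactly equal values held by more than 1 gene, among values of at least 1 FPKM, numbered 9 to 34 in the 5 columns with 2 listed samples and 0 to 3 in the 7 columns with 3. One of them touches a member: Expi and Fabp3 (heart-type fatty acid-binding protein) both had 11627 FPKM as deposited in AABB at parturition. How these equal values arose was not tested, and every Expi ratio against AABB at parturition rests on that number.

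Wap was among the most abundant RNAs of AABB at parturition and was lower in each of the other genotypes. At parturition it had 296 scaled FPKM in Null, 13.1 in B, 201 in A, 17011 in BB, 27599 in AB and 138276 in AABB. Columns with at most 1 allele had 296 or less, columns with 2 alleles 17011 or more, and AABB was highest. The skeletal muscle markers split the columns of this stage in the same way, with 1516 or more in Null, B and A and 152 or less in BB, AB and AABB, and their part in the Wap values was not tested. In AABB Wap ranked 3 of all genes by FPKM. The log2 ratio to AABB was -8.86 in Null, -13.26 in B, -9.42 in A, -3.02 in BB and -2.32 in AB. In B this was rank 2 from the lowest of the 13061 genes compared, and in A rank 3. A exceeded B by 3.84, and BB exceeded B by 10.24. AB and BB, which both carry 2 alleles, differed by 0.70, under the 2-fold threshold. The lowest Wap column was thus B and not Null, with a log2 ratio of B to Null of -4.40. This order was not general to milk genes. Over 14 other milk protein genes the median log2 ratio to AABB was -8.98 in Null and -6.39 in B. In B against Null 7 of these 14 were called higher (2.72% of compared genes) and 2 lower (2.86%). Why Wap was lower in B than in Null was not tested.

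**Figure D1:**
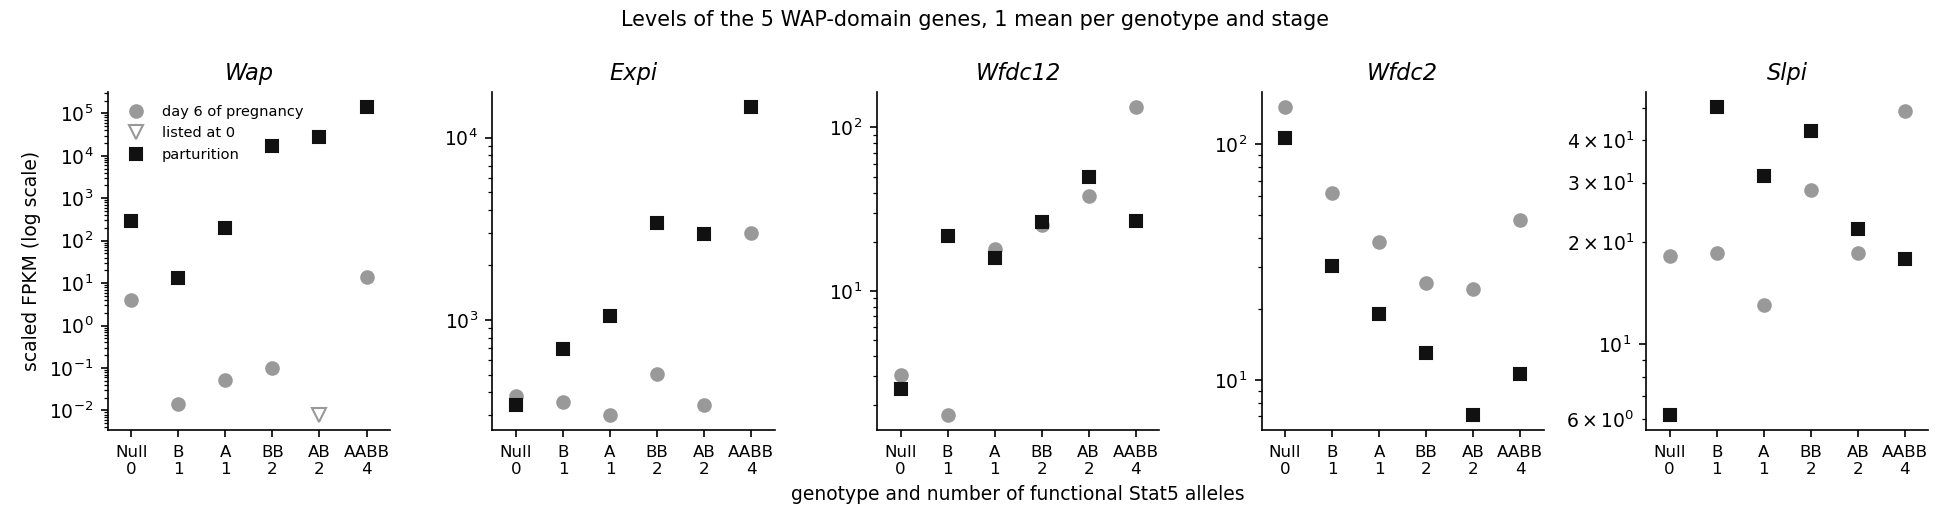
Scaled FPKM (log axis) of the 5 genes in the 6 genotypes at both stages, each point being the authors' mean of 2 or 3 samples, so that no error bars can be drawn. Wap spans the widest range, Expi is highest in AABB at both stages, and Wfdc2 is highest in Null at both stages. Wap in AB at day 6 is listed at 0 and is marked by an open triangle, whose height is no level.

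Wap was low everywhere at day 6 of pregnancy. Scaled FPKM was 4.05 in Null, 0.014 in B, 0.051 in A, 0.098 in BB and 14.0 in AABB, and AB was listed at 0. Null and AABB were the only columns above 1. The log2 ratio to AABB, which the added 1 FPKM shrinks at such levels, was -1.57 in Null and -3.77 to -3.88 in BB, A and B. Null stood above B by 2.32 (B to Null -2.32). No fold is given for AB, whose column is counted as lower than AABB only because of the added 1 FPKM.

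Expi was the most abundant of the 5 genes in every column at day 6 and in Null, B and A at parturition, and stood second to Wap in BB, AB and AABB. At parturition it had 339.7 scaled FPKM in Null, 691 in B, 1047 in A, 3383 in BB, 2974 in AB and 14646 in AABB. Here every step of allele number was higher than the one before, from Null through B and A and through BB and AB to AABB, and Expi was the only one of the 5 genes with this order. Among all compared genes 6.78% rose at every such step at parturition, and 10% fell at every step. The log2 ratio to AABB was -5.43 in Null, -4.40 in B, -3.81 in A, -2.11 in BB and -2.30 in AB. A and B differed by 0.60 and AB and BB by -0.19, so columns with equal allele numbers stood within 2-fold of each other.

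At day 6 Expi showed no grading below AABB. It had 379.8 scaled FPKM in Null, 355 in B, 302 in A, 507 in BB and 343 in AB, against 2993 in AABB, where it ranked 8 of all genes. The 5 columns with fewer alleles lay within 2-fold of each other, and AABB was above all of them, with log2 ratios to AABB of -2.97 in Null, -3.07 in B, -3.30 in A, -2.56 in BB and -3.12 in AB. In AABB, Expi thus had 2993 scaled FPKM at a stage when Wap had 14.0. At day 6 none of the 5 genes was graded at every step of allele number, as were 0.823% of all compared genes upward and 0.531% downward.

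Wfdc12 was highest in AABB at day 6 but not at parturition. At day 6 it had 3.05 scaled FPKM in Null, 1.75 in B, 18.1 in A, 25.3 in BB, 38.1 in AB and 133 in AABB. Null and B were lowest and AABB highest, A and B being the columns with raised B-cell markers at this stage, and the Null ratio to AABB of -5.05 was the fourth lowest of 13367 genes. A exceeded B by 2.79 on the log2 scale at equal allele number, and BB exceeded B by 3.26. At parturition Wfdc12 had 2.50 scaled FPKM in Null, 21.8 in B, 15.8 in A, 26.2 in BB, 49.6 in AB and 26.7 in AABB. Only Null was called there, with a log2 ratio to AABB of -2.98, while B, A, BB and AB had -0.28, -0.72, -0.02 and 0.87. A was no longer above B, with a log2 ratio of -0.44. The day 6 ratio of AB to AABB was -1.78, and it ended as a call with columns scaled to equal luminal markers, at -0.66. At parturition 2 further calls arose: AB became higher than AABB without scaling, at 1.09, or with sums equal outside milk genes, at 1.13, and A became lower with luminal scaling, at -1.18.

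Wfdc2 ran the other way and was highest in Null. At day 6 it had 143 scaled FPKM in Null, 62.3 in B, 38.6 in A, 25.7 in BB, 24.3 in AB and 47.5 in AABB. The Null column was at least 2-fold above each of the others, and its log2 ratio to AABB was 1.57. At parturition Wfdc2 had 106 scaled FPKM in Null, 30.3 in B, 18.9 in A, 13.03 in BB, 7.12 in AB and 10.6 in AABB. Null was again highest, with a log2 ratio to AABB of 3.20, and B followed with 1.43. A, BB and AB stayed within 2-fold of AABB, at 0.78, 0.27 and -0.52. The parturition call in B ended when columns were scaled to equal luminal markers, at 0.93, while B at day 6 became a higher call, at 1.40. Without scaling A became a higher call at parturition, at 1.21, and AB a lower one at day 6, at -1.12.

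Slpi, an inhibitor of neutrophil elastase and cathepsin G that epithelia and myeloid cells both make, changed its place between the stages. At day 6 it had 18.2 scaled FPKM in Null, 18.6 in B, 13.1 in A, 28.5 in BB, 18.6 in AB and 48.8 in AABB. AABB was the highest column, and the log2 ratio to AABB was -1.38 in Null, -1.35 in B, -1.82 in A, -0.75 in BB and -1.35 in AB. At parturition it had 6.19 scaled FPKM in Null, 50.1 in B, 31.4 in A, 42.8 in BB, 21.9 in AB and 17.8 in AABB. The 4 columns with 1 or 2 alleles lay above AABB there and Null below it, with log2 ratios of -1.39 in Null, 1.44 in B, 0.78 in A, 1.22 in BB and 0.28 in AB. With columns scaled to equal luminal markers, the day 6 calls ended in Null, B, A and AB, at -0.85, -0.34, -0.72 and -0.25, and the parturition calls ended in B and BB, at 0.92 and 0.77. Without scaling the Null call at parturition ended, at -0.95, and A became a higher call, at 1.23.

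Markers of cells that could carry these RNAs moved as well. The 10 luminal epithelial markers, all of which were detected in every column, summed to 1686 scaled FPKM in Null, 1358 in B, 1234 in A, 1409.9 in BB, 961 in AB and 2092 in AABB at day 6, and to 1348, 2385, 2389.8, 2511, 2282 and 1603 in the same order at parturition. The sum is thus highest in AABB at day 6, but lower in AABB than in B, A, BB and AB at parturition, and Slpi was highest in AABB and then below the same 4 columns. The single markers did not all move with the sum. At parturition Cldn7 and Spint2 were highest in AABB, at 107 and 229. Set against AABB there, 5 of the 10 markers were called higher and 1 lower in B, and 4 higher and 1 lower in A. BB had 2 called higher and AB 1, with 0 lower. The 6 macrophage markers summed to 658 to 962 scaled FPKM at day 6, with 878 in AABB, and at parturition to 313 in Null, 794 in B, 839 in A, 657 in BB, 635 in AB and 286 in AABB. At parturition 4 of these 6 were at least 2-fold higher in Null than in AABB (median log2 ratio 1.31). Cd14 was lower, at 38.1 in Null and 168 in AABB, and was the largest part of the AABB sum. Of the 8 neutrophil markers, Lcn2, which alveolar cells also make, gave most of the sum in every column, with 227 in Null and 4338 in AABB at parturition. In bulk tissue fewer cells of a type and less RNA per cell cannot be told apart, and the part of these markers in the 5 genes' values was not tested.

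Counted together against AABB at day 6, all 5 genes were called in Null, where 4.30% of compared genes were called. Of them 4 were lower (Wap, Expi, Wfdc12 and Slpi; 2.09% of compared genes) and 1 higher (Wfdc2; 2.21%). B had 4 of 5 called, all lower, against 12.7% of compared genes called in either direction and 5.18% called lower. With luminal scaling B had 3 lower and 1 higher (Wfdc2). A had 4 of 5, all lower, against 12.5% and 5.54%. BB had 3, all lower, against 8.72% and 3.60%, and AB had 4, all lower, against 11.8% and 5.01%. At parturition more genes were called in every such comparison. Null had 5 of 5 called against 29.8%, with 4 lower (10.7% of compared genes) and Wfdc2 higher (19.1%). B had 4 of 5 against 28.3%, with Wap and Expi lower (10.1%) and Wfdc2 and Slpi higher (18.2%). A had Wap and Expi called, against 27.3%. BB had 3 called against 13.4%, Wap and Expi lower (5.37%) and Slpi higher (8.07%). AB had 2 called, Wap and Expi, both lower, against 15.7% and 5.45%. Wap and Expi were lower in all 10 of these comparisons, Wap in AB at day 6 by being listed at 0. The median over the 5 genes of the log2 ratio of Null to AABB was -1.57 at day 6, against 0.00 over all compared genes, and -2.98 at parturition, against 0.10.

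**Figure D2:**
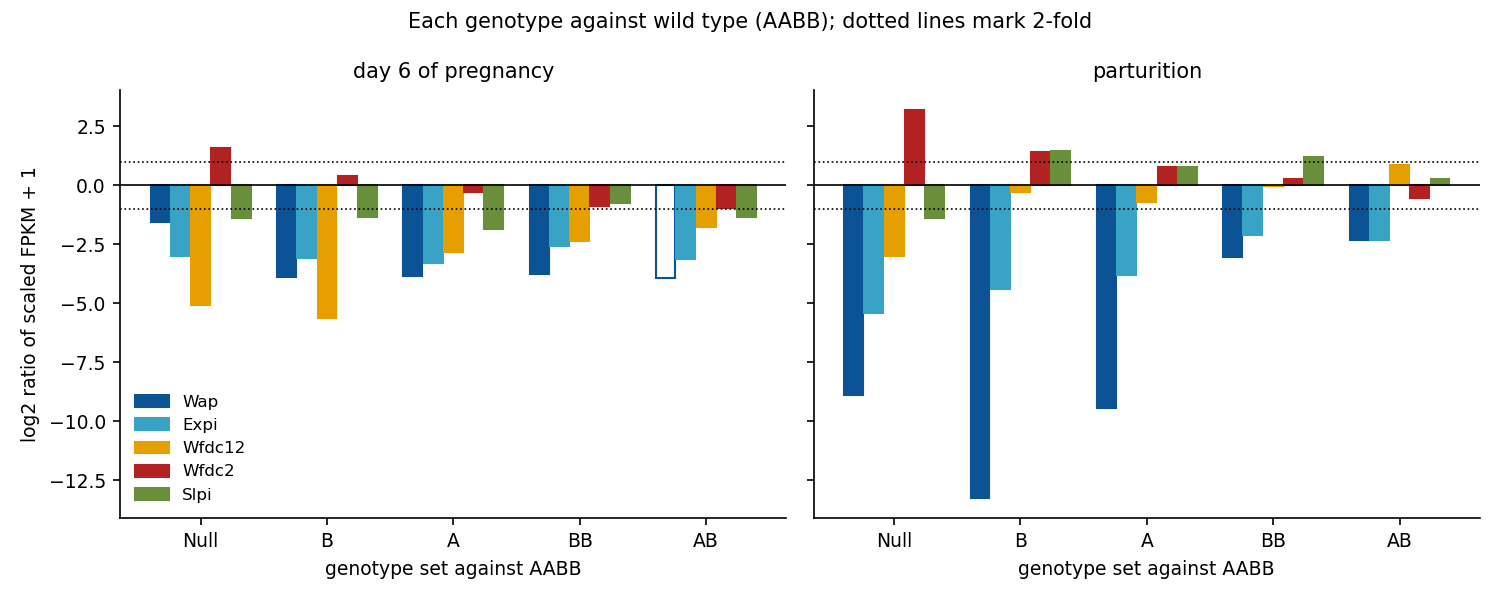
Log2 ratio of scaled FPKM + 1 of Null, B, A, BB and AB to AABB for each of the 5 genes at both stages, with the 2-fold threshold marked. Wap and Expi lie below AABB in every genotype, Wfdc2 in Null lies above it at both stages, and Slpi in B lies at -1.35 at day 6 and at 1.44 at parturition.

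**Figure D3:**
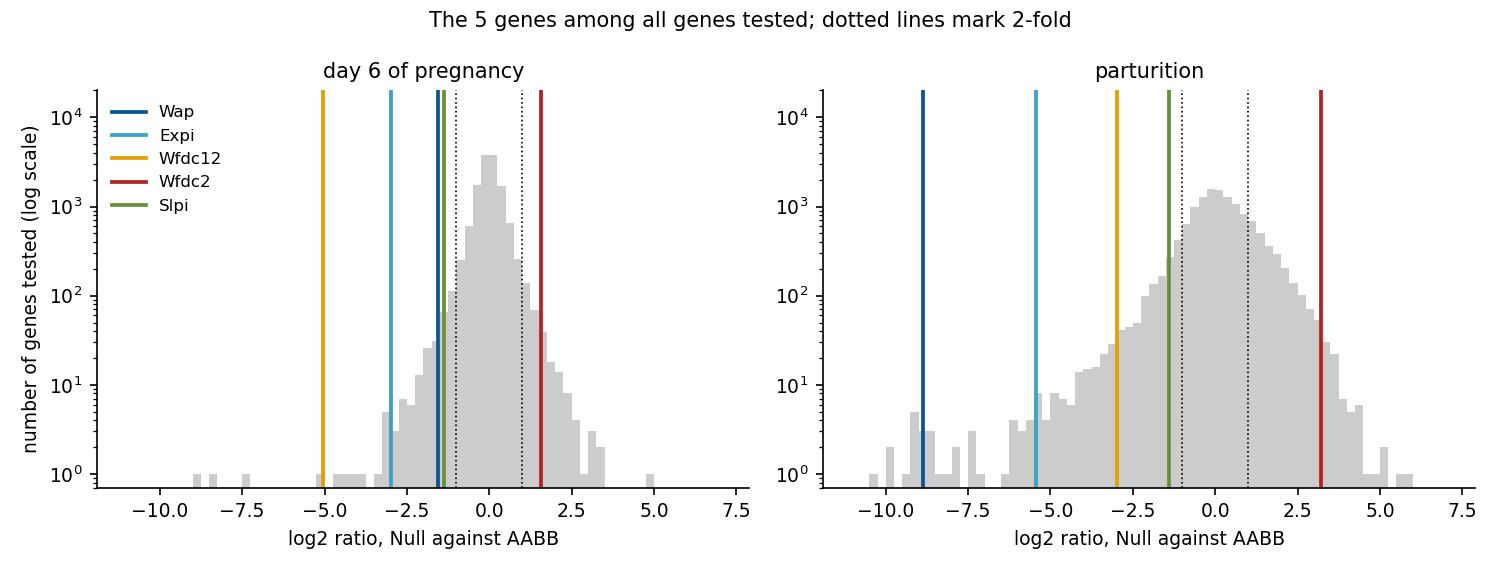
Distribution of the log2 ratio of Null to AABB over all 13367 (day 6 of pregnancy) and 13061 (parturition) compared genes, with the 5 genes marked. At parturition Wap and Expi lie at -8.86 and -5.43 and Wfdc2 at 3.20.

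Comparisons between mutants, which share no AABB column, asked whether the identity or number of alleles mattered once some were lost. A against B called few genes, 0.382% at day 6 and 0.704% at parturition, and 1 of the 5 was called at each stage: Wfdc12 at day 6, higher in A by 2.79, and Wap at parturition, higher in A by 3.84. AB against BB called 0 of 5 at both stages, against 2.72% and 1.78%. BB against B called 2 of 5 at day 6 (6.46%), with Wfdc12 higher by 3.26 and Wfdc2 at -1.25. At parturition it called 3 of 5 (7.86%), with Wap higher by 10.24, Expi higher by 2.29 and Wfdc2 at -1.16. AB against A called 1 of 5 at day 6 (7.88%), Wfdc12 higher by 1.04, a call that ended without scaling, at 0.82. At parturition it called 4 of 5 (5.96%), with Wap higher by 7.10, Wfdc12 by 1.59 and Expi by 1.51, and Wfdc2 at -1.30.

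Against Null, where the genes were removed by MMTV-Cre and not in the whole animal, the single-allele columns also differ in the way the alleles were lost. B against Null called 2 of 5 at day 6 (10.4% of compared genes), Wap at -2.32 and Wfdc2 at -1.19. At parturition it called all 5 (5.57%), with Slpi higher by 2.83, Wfdc12 by 2.70 and Expi by 1.02, and with Wap at -4.40 and Wfdc2 at -1.77. A against Null called 3 of 5 at day 6 (10.8%), with Wfdc12 higher by 2.23, Wap at -2.26 and Wfdc2 at -1.87. At parturition it called 4 of 5 (6.69%), with Wfdc12 higher by 2.26, Slpi by 2.17 and Expi by 1.62, and Wfdc2 at -2.42. Wap stood at -0.56 there, within 2-fold. With luminal scaling the Expi calls against Null at parturition ended, at 0.26 in B and 0.91 in A, as did the Wfdc2 call in B at day 6, at -0.69. With sums equal outside milk genes, the Expi call in B at parturition and the Wfdc2 call in B at day 6 ended as well.

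Within a column no scaling is needed. The 5 genes together took 0.192% of all FPKM in Null, 0.193% in B, 0.291% in A, 2.57% in BB, 4.07% in AB and 10.2% in AABB at parturition. At day 6 they took 0.0864% to 0.128% in the 5 mutant columns and 0.637% in AABB. Of their own sum at parturition, Wap made up 39.5% in Null, 1.62% in B, 15.3% in A, 83.1% in BB, 90.0% in AB and 90.4% in AABB. Per FPKM of Expi there were 0.87 FPKM of Wap in Null, 0.019 in B, 0.19 in A, 5.03 in BB, 9.28 in AB and 9.44 in AABB. AB, with 1 allele of each gene, thus had nearly the wild-type proportion of both whey transcripts, while its level of each was lower than in AABB, and the AABB proportion rests on the Expi value shared with Fabp3. Against Csn2 the picture was different: there were 0.587 FPKM of Wap per FPKM of Csn2 in Null, 0.0048 in B, 0.026 in A, 0.154 in BB, 0.283 in AB and 0.567 in AABB.

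**Figure D4:**
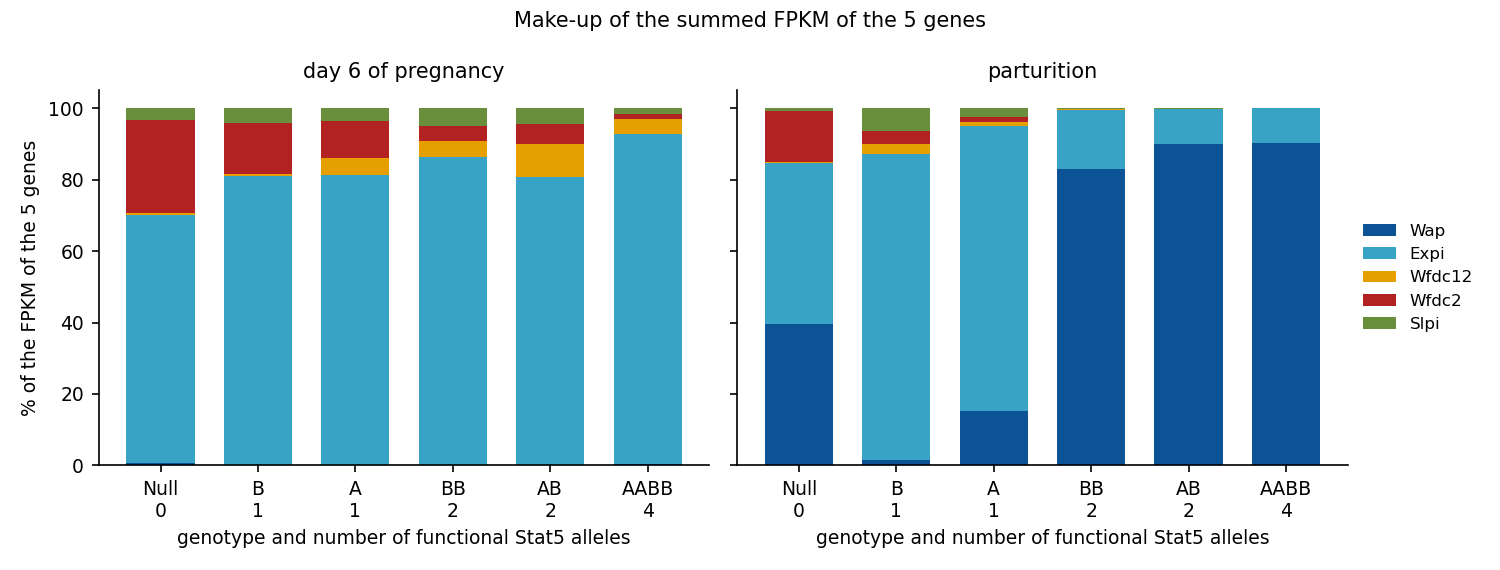
Share of each of the 5 genes in their summed FPKM, in percent, in the 6 genotypes at both stages. Expi fills most of the sum in every column at day 6, and at parturition Wap makes up 83.1% to 90.4% in BB, AB and AABB but 1.62% in B.

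Of 18 other WAP-domain genes in the tables, 4 passed the filter at each stage. Wfdc3 followed the whey genes: at parturition it had 1.32 scaled FPKM in Null, 6.76 in B, 20.8 in A, 130.5 in BB, 85.7 in AB and 643 in AABB, a log2 ratio of Null to AABB of -8.12. Wfdc21, like Wfdc2, was higher in Null than in AABB, with 28.5 scaled FPKM in Null and 5.41 in AABB at parturition. Unlike Wfdc2 it was not highest in Null: B had 32.3 and A 39.4 at that stage. At day 6 it had 78.7 in Null, 83.1 in BB and 86.6 in AB. Wfdc17, listed under the older symbol Gm11428, had 2.88 scaled FPKM in Null, 27.0 in B, 24.7 in A, 10.2 in BB, 16.5 in AB and 57.3 in AABB at parturition. At day 6 AABB was instead its lowest column, at 5.23, with Null at 5.54, B at 38.5, A at 35.1, BB at 25.8 and AB at 34.4. Its transcript is 85.1% identical to that of Expi over 502 aligned bases, with a longest identical run of 30 bases, so that reads could be split between these neighbours and the Wfdc17 level is uncertain. Over these 4 genes the median log2 ratio of Null to AABB was 0.14 at day 6 and -1.72 at parturition. Wfdc1 stayed within 2-fold of AABB in Null at both stages.

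The other genes of milk and of protease control were set beside them, from lists chosen with earlier results of these data known. Of all compared genes, 2.09% were lower and 2.21% higher in Null than in AABB at day 6. At parturition 10.7% were lower and 19.1% higher, and the counts below are to be read beside these shares. Of other milk protein genes, 8 of 11 compared were lower in Null than in AABB at day 6 (median log2 ratio -1.83) and all 14 of 14 at parturition (median -8.98), with Csn1s2b at 10.9 scaled FPKM in Null and 17144 in AABB and Csn3 (kappa-casein) at 119 in Null and 72859 in AABB. One was higher in Null at day 6, Ltf (lactoferrin), with 308 scaled FPKM in Null and 50.6 in AABB. Of genes of the serpin, Kunitz and Kazal families, most of them known protease inhibitors but some intracellular or bound to the membrane, 6 of 11 were higher and 2 lower in Null at parturition (median 1.19), and 1 of 12 was higher and 1 lower at day 6 (median 0.27). Serpina3n had 77.7 scaled FPKM in Null and 9.33 in AABB, and Serpinf1, a serpin with no known protease inhibitor activity, 177 in Null and 25.5 in AABB. The 2 that were lower were the epithelial membrane inhibitors Spint1, with 17.1 in Null and 40.7 in AABB, and Spint2, with 81.2 in Null and 229 in AABB. Of proteases of neutrophils and mast cells, 5 of 7 were higher in Null at day 6 and 6 of 6 at parturition. Without the metalloprotease Cpa3, which leaves serine proteases alone, 4 of 6 (median 1.297) and 5 of 5 (median 3.28) were higher, led by the mast cell chymase Mcpt4 with 39.6 scaled FPKM in Null and 2.05 in AABB. The rise was not particular to Null. With Cpa3 kept, 5 of 7 were higher in B, A and BB and 4 of 7 in AB at day 6. Their medians were 4.15, 4.07, 4.12 and 3.75, against 1.34 in Null. At parturition 6 of 6 were higher in each of B, A, BB and AB. Elane (neutrophil elastase, a protease that Slpi blocks) had 1.89 scaled FPKM in Null and 0.31 in AABB at day 6, both values being low. At parturition it did not pass the filter, with 0.43 in Null and 0.12 in AABB. Of the 5 neutrophil markers compared at day 6, 0 were called higher in Null. At parturition mast cell markers, which hold some of these proteases, summed to 163 scaled FPKM in Null and 14.7 in AABB, fibroblast markers to 2152 in Null and 384 in AABB, and adipocyte markers to 27487 in Null and 5486 in AABB, and their part in these values was not tested. In B, A, BB and AB the same 3 sums also lay above AABB, at 157 to 218, 1530 to 2304 and 7415 to 17442. Of 16 genes linked to STAT5 signalling, 6 were lower and 1 higher in Null at day 6 (median -0.70), and 5 lower and 4 higher at parturition (median 0.49). The 16 include Stat5a and Stat5b, which were removed in Null, so their lower calls follow from the genotype. These calls were Stat5a at day 6 (-1.25), and Stat5a (-3.17) and Stat5b (-1.61) at parturition. Elf5, a transcription factor of alveolar differentiation, had 66.9 scaled FPKM in Null, 126 in B, 185 in A, 725 in BB, 463 in AB and 1085 in AABB at parturition.

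Genes with the most similar pattern were found by the root mean square difference of the 10 log2 ratios to AABB, over 11829 genes compared at both stages. The ratios share their AABB columns, and Fabp3 also shares its parturition AABB value with Expi. Wap was closest to Fabp3 (difference 1.03), Spp1 (osteopontin, 1.61) and Glycam1 (1.81). Expi was closest to Bcl2l15 (0.84), Slc28a3 (0.88), a nucleoside transporter, and Gjb2 (1.00), a gap junction protein. Wfdc12 had no near neighbour, its first 3 being Cited4, Irx3 and Crabp2 at 1.46 to 1.59. Wfdc2 was matched more closely by Nrg4 (0.40), a ligand of the ErbB4 receptor, Pfkfb1 (0.60) and Aldh3b2 (0.62). Slpi was closest to Ppap2c (0.49), Lpcat4 (0.51) and Cyba (0.52), a subunit of the NADPH oxidase. Nrg4 itself had 35.6 scaled FPKM in Null and 3.58 in AABB at parturition.

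The genes beside Wap on the chromosome, Tbrg4 and Ramp3, did not share its level but were also highest in AABB at parturition. Tbrg4 had 12.0 scaled FPKM in Null, 9.10 in B, 9.29 in A, 11.4 in BB, 15.6 in AB and 20.9 in AABB at parturition. Ramp3, a partner of calcitonin-type receptors, had 0.58 in Null and 5.52 in AABB, a log2 ratio of -2.04. Its B column had 1.22, A 0.73, BB 1.24 and AB 1.19.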

How the data were processed

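Libraries of poly(A) RNA were read on a HiSeq machine (per the labels' protocols). CASAVA and TopHat were used, with build mm9, per the submitters' processing notes; versions, the FPKM program and the annotation are not given in the sources used here. The authors deposited FPKM per gene symbol as means over the samples of a genotype: 57.8% to 62.7% of values end in 33 or 67 where 3 samples are listed, against 0.40% to 0.62% where 2 are. A planned limma test and omission of single replicates need values per sample and were not run.

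Columns were scaled within a stage to the median ratio over genes (11733 genes at day 6, 10864 at parturition; factors 0.916 to 1.07 and 0.794 to 1.13). FPKM sums were 433958 to 528347 and 432576 to 1190590. Log2 ratios used a pseudocount of 1. On simulated data 100% of 200 genes changed 4-fold were recovered, with 0 false calls. The planted change lies above the 2-fold threshold, so this checks the running of the procedure only. It gives no rate of false calls for the deposited means, whose spread between samples is unknown. Alternatives were a pseudocount of 0.1, no filter, no scaling, and scaling to equal luminal markers or to equal sums without milk genes. The members, the lists and the rule for named genes (the 5 members, Stat5a and Stat5b, up to 4 genes per list by largest ratio of Null to AABB, and 3 most similar genes per member) were chosen with earlier results of these data known. Cd14, Cd79a, Cldn7, Cpa3, Elane, Ramp3, Tbrg4, Lcn2, Ltf, Spint1 and Spint2 were named after their values were seen. A genotype with Stat5b lost and 2 Stat5a alleles is not analysed here. Python 3.11.15, numpy 2.4.6, pandas 2.3.3 and matplotlib 3.10.9 were used.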

Additional observations from a re-analysis of the deposited data

Results flagged for a closer look

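Slpi in B against AABB took opposite directions at the 2 stages, with a log2 ratio of -1.35 at day 6 of pregnancy and of 1.44 at parturition, a difference of 2.79. Scaled FPKM was 18.6 in B and 48.8 in AABB at day 6, and 50.1 in B and 17.8 in AABB at parturition. The difference was not tested, since each column is a mean over samples and the tables were normalised separately. With columns scaled to equal luminal markers the ratios were -0.34 and 0.92.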

How the results depend on the processing

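No paired analysis was possible because the tables hold 1 mean per genotype and stage, and for the same reason no sample could be left out and no spread between samples is known. Of 110 log2 ratios of the 5 genes, all 110 kept direction and side of the 2-fold threshold with a pseudocount of 0.1 and with no filter on low values. Without scaling 103 kept their side of the threshold, with sums equal outside milk genes 105 and with equal luminal markers 95. No called ratio turned round, but the direction of ratios under the threshold was not counted in these 3 settings. Wfdc12 in BB against AABB at parturition, for example, was -0.02 as scaled but had 25.8 FPKM in BB and 21.2 in AABB as deposited. Counts of called members that moved by over 1.5 times were as follows. Without scaling, A against AABB at parturition had 4 (2 as reported; Wfdc2 and Slpi were added, both higher), AB against BB at parturition 1 (0) and AB against A at day 6 0 (1). With sums equal outside milk genes, AB against BB at parturition had 1 (0), AB against A at day 6 0 (1) and B against Null at day 6 1 (2). With equal luminal markers, AB against AABB at day 6 had 2 (4), B against AABB at parturition 2 (4), AB against BB at day 6 1 (0) and B against Null at day 6 1 (2). Luminal scaling also moved the median log2 ratio of all compared genes to AABB, to 0.91 in B, 0.98 in A and 0.92 in AB at day 6, and its calls are to be read against that shift. The cause of the moves in count was not tested. Unknown depth limits the low values most, such as Wap at day 6, and the Expi value shared exactly with Fabp3 in AABB at parturition could not be checked against single samples.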
